A study of Mus musculus with 3 samples.

Results

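The growth factor receptors through which blood progenitors receive signals to survive, divide and mature were followed across 3 arrays of mouse LSK cells. They are the products of 9 genes, Kit, Flt3, Tek, Csf1r, Csf3r, Epor, Csf2rb, Il3ra and Il6st, out of 18194 named genes on the array. Every probe set annotated to them was taken, 17 in all, of which 16 match 1 gene and 1 is shared between Csf2rb and its neighbour Csf2rb2. LSK cells are the fraction of bone marrow that lacks mature lineage markers and carries Sca-1 and Kit, and it holds stem cells and multipotent progenitors. The 3 arrays were 1 each of LSK cells from p53 -/- Mef -/- mice, which lack p53 and the ETS factor that Elf4 encodes (DKO), from p53 -/- mice (p53 KO) and from wild-type mice (WT). The labels name no treatment, and the age, strain and number of the mice and the number of sorts are not stated in the sources used here. With 1 array per genotype there is no replicate, so every difference compares a pair of arrays, carries no error and was not tested.

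Receptors of this group fall into 2 structural classes. Kit, Flt3 and Csf1r are receptor tyrosine kinases of the PDGF receptor class, and Tek (Tie2) is a receptor tyrosine kinase that binds angiopoietins. Epor, Csf3r, Csf2rb, Il3ra and Il6st are cytokine receptors without a kinase of their own, which signal through JAK kinases and STAT factors. In the marrow, Kit and Flt3 serve early progenitors, Tek marks quiescent stem cells and endothelium, Csf1r and Csf3r serve macrophages and neutrophils, and Epor serves red cell precursors. Csf2rb is the shared beta chain of the receptors for IL-3, IL-5 and GM-CSF, and Il6st (gp130) is the shared chain of the IL-6 family.

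Signals are on a linear scale. For differences, signals under the overall median of the 3 arrays (110.4, the floor) were set to that value, and the log2 signal of a later-named array was subtracted from that of the array named before it (DKO over WT is log2 DKO less log2 WT). The brightest probe set on average, among those matching 1 gene, stands for each gene, and levels of different genes are not set against each other. A gene counted as measured when that probe set reached the floor on at least 1 array, as 12597 genes and all 9 receptors did. For scale, the difference given by a second probe set of the same gene departed from the first with a robust SD of 0.43 (p53 KO over WT), 0.50 (DKO over WT) and 0.50 (DKO over p53 KO) on the log2 scale over 5507 genes. That spread holds no variation between mice, sorts or labelling reactions.

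The labels could be checked only in part. Elf4 had a signal of 151 on the array labelled DKO, 182 on p53 KO and 57.4 on WT, so the array labelled DKO did not show less of it than WT did, and directions for DKO rest on its label. The WT signal of Elf4 was below the floor, so a loss on DKO against WT could not have been seen. No source used here places that probe set inside or outside the deleted part, and p53 itself was not analysed here. Of 8 markers of LSK cells other than Kit, 8 reached the floor on DKO, 8 on p53 KO and 7 on WT, while Ly6a, the gene of Sca-1, was not analysed here. Markers of mature granulocytes and red cell precursors were also bright on every array. The floor was reached by 53.8% of 45101 probe sets on DKO, 48.9% on p53 KO and 47.3% on WT.

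The receptors did not move as a block. By the probe set used for each gene, the myeloid receptors Csf1r and Csf2rb and the IL-6 family chain Il6st were more than 2-fold higher on the p53 KO array than on WT, of which Csf1r alone stayed so with the mean over probe sets, while Kit and Flt3 were lower by under 2-fold. On the DKO array Epor was 3.20-fold lower than on WT, and Flt3 was 1.98-fold higher. Between the knockouts, Flt3 was 3.17-fold higher on DKO than on p53 KO, and Epor was 2.54-fold lower. Il6st was 2.69-fold lower by its brightest probe set, but its next probe set gave the opposite sign.

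For p53 KO over WT, 3 of 9 receptors were at least 2-fold higher (33.3%), where 6.51% of all measured genes were, and 0 were at least 2-fold lower, where 3.19% of genes were. With the mean over probe sets the 3 became 1 (Csf1r). That mean takes in probe sets below the floor, whose differences are 0 or bounds, which draws Il6st and Csf2rb toward 0. For DKO over WT, 0 were at least 2-fold higher (5.22% of genes) and 1 lay past that threshold downward (3.10% of genes). For DKO over p53 KO, 1 receptor was at least 2-fold higher (4.10% of genes) and 2 were lower by as much (5.93% of genes), or 1 (Epor) with the mean over probe sets. A single receptor past 2-fold, as for DKO over WT, is the smallest share that 9 genes can show, so nothing about the group is read from it. The median log2 difference over the 9 receptors was 0.21 for p53 KO over WT, 0.54 for DKO over WT and -0.41 for DKO over p53 KO, beside 0.00, 0.07 and 0.11 over all measured genes. The first of these medians depended on the floor and was 0.94 over 7 receptors when the floor was the 75th percentile. The comparisons share arrays, so they are not independent of each other. The same shares over all genes apply to the 2-fold counts of the lists that follow. By order of signal, 3 receptors (Csf1r, Csf2rb and Csf3r) were highest on p53 KO, next on DKO and lowest on WT. Il3ra lay at the floor and its order was not read, and each of the other 5 had an order of its own by the probe set used. For Kit and Il6st, DKO and WT were nearly equal, so their place in that order is not read.

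**Figure D1:**
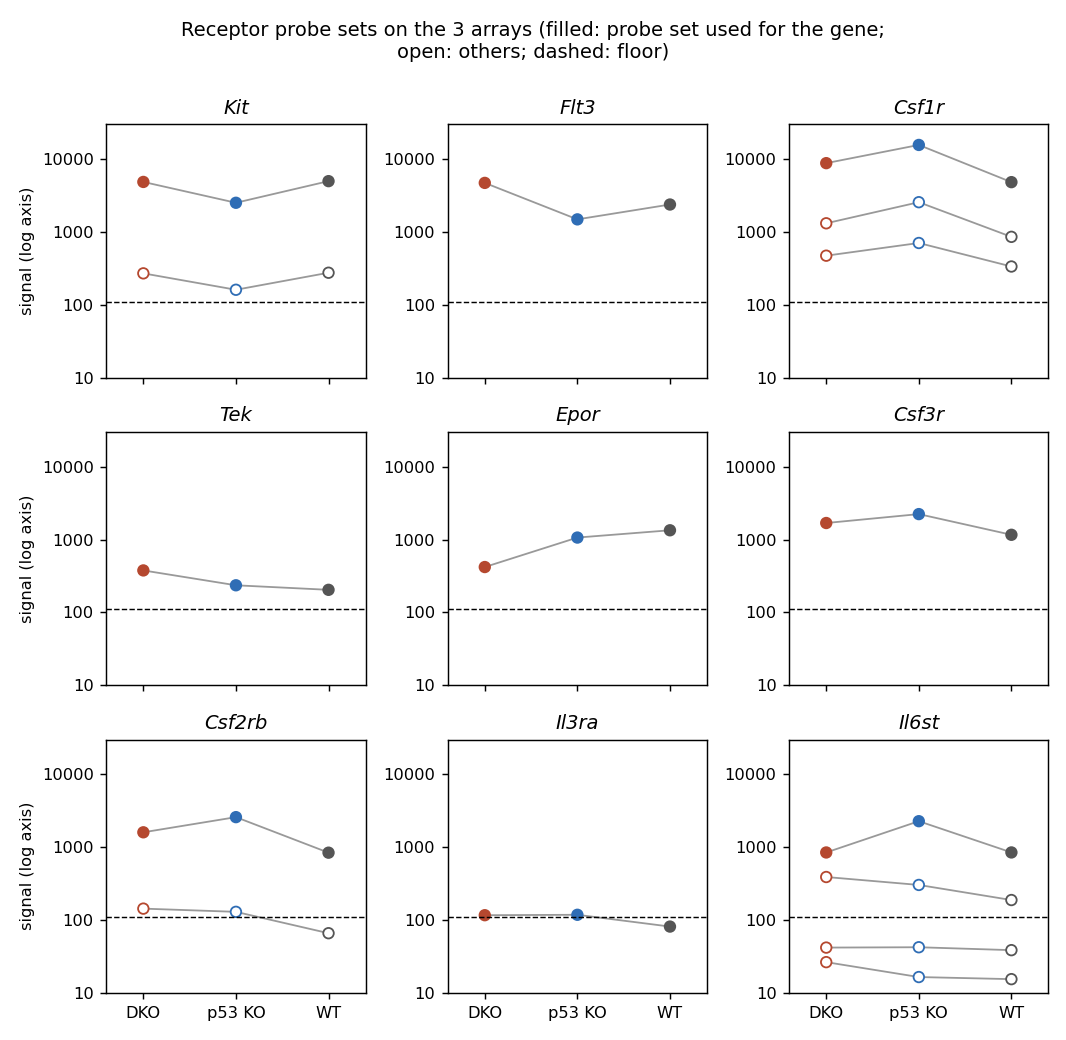
Signal of each single-gene receptor probe set (log axis) on the DKO, p53 KO and WT arrays, 1 array each; filled points are the probe set used for the gene, open points its others, and the dashed line is the floor of 110.4. The 3 Csf1r probe sets share the order of arrays, as do the 2 of Kit, while the brighter 2 of Il6st differ in order.

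Kit, the receptor for stem cell factor and one of the surface markers by which LSK cells are sorted, had signals of 4873 on DKO, 2522 on p53 KO and 4996 on WT. The p53 KO array was thus the low one, and DKO and WT were nearly equal. The log2 difference was -0.99 for p53 KO over WT (1.98-fold), -0.04 for DKO over WT and 0.95 for DKO over p53 KO. Of all measured genes, 3.37% had a more negative difference for p53 KO over WT. The other Kit probe set, at 271 on DKO, 161 on p53 KO and 276 on WT, gave -0.78, -0.03 and 0.75. The 8 other LSK markers summed to 24742 on DKO, 14861 on p53 KO and 15610 on WT, so their sum differed little between p53 KO and WT.

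Flt3, the receptor that drives the expansion of multipotent and lymphoid-primed progenitors and of dendritic cell precursors, had signals of 4728 on DKO, 1492 on p53 KO and 2387 on WT. Of the 9 receptors it alone had its highest signal on DKO and its lowest on p53 KO, an order that Pdgfrb, outside the 9, shared. The Flt3 difference of DKO over p53 KO was 1.66 on the log2 scale (3.17-fold), and 44 of 12597 genes had a larger one. Flt3 was 0.99 higher on DKO than on WT (1.98-fold, just under 2-fold), and its difference for p53 KO over WT was -0.68. After quantile normalization or cyclic loess the difference of DKO over WT passed 2-fold. No other probe set was annotated to Flt3. Flt3 is also a dendritic cell marker, and the 10 other markers on that list summed to 6063 on DKO, 8450 on p53 KO and 4139 on WT, and their part in the Flt3 signal was not tested. Irf8 carried most of the DKO sum, with 3816 on DKO, 4541 on p53 KO and 1798 on WT. For DKO over WT 4 of the 8 measured markers were higher and 3 lower by any amount, with a median of 0.03. Of these markers Batf3 and Siglech were below the floor on every array.

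Csf1r, the receptor for M-CSF and IL-34 that macrophages depend on, had signals of 8826 on DKO, 15695 on p53 KO and 4841 on WT. It was highest on p53 KO and lowest on WT by all of its probe sets, the others having 1318 on DKO, 2568 on p53 KO and 859 on WT, and 473, 707 and 336 on the same arrays. For p53 KO over WT the log2 difference was 1.70 (3.24-fold), with 1.58 and 1.07 by the other probe sets. For DKO over WT it was 0.87 (1.82-fold), with 0.62 and 0.49, and for DKO over p53 KO it was -0.83, with -0.96 and -0.58.

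Tek, the angiopoietin receptor, had low signals of 378 on DKO, 236 on p53 KO and 205 on WT. Its difference was 0.89 for DKO over WT (1.85-fold), 0.68 for DKO over p53 KO and 0.21 for p53 KO over WT, with 1 probe set. The 13 other markers of stroma and endothelium summed to 7774 on DKO, 6842 on p53 KO and 4540 on WT. Their part in the Tek signal was not tested. Angpt1 carried most of the DKO sum, with 5530 on DKO, 2537 on p53 KO and 2864 on WT. Vcam1 was highest on p53 KO instead (713, 2890 and 566 on the same arrays). Of the 13 markers 7 reached the floor on DKO, 6 on p53 KO and 4 on WT. Cdh5, Tie1, Col1a1, Col3a1 and Lepr were below it on every array. Of the endothelial genes over it, Emcn had 204 on DKO, 138 on p53 KO and 106 on WT. Pecam1 had 221, 89.3 and 109 on the same arrays, and the fibroblast gene Col1a2 had 304, 266 and 206. Kdr reached the floor on p53 KO alone (78.0 on DKO, 125 on p53 KO and 90.0 on WT), and Cxcl12 was highest there (295, 376 and 184). For DKO over p53 KO 5 of the 8 measured markers were higher and 3 lower by any amount.

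Epor, the erythropoietin receptor on which red cell precursors depend for survival, had signals of 420.5 on DKO, 1068 on p53 KO and 1345 on WT. The DKO array stood well below the others. The log2 difference was -1.68 for DKO over WT (3.20-fold lower), -1.34 for DKO over p53 KO (2.54-fold lower) and -0.33 for p53 KO over WT. Only 93 of 12597 genes had a more negative difference for DKO over WT. All 8 alternative settings kept Epor at least 2-fold lower on DKO in comparison with either array. Epor has no other probe set, so the settings on probe sets could not change it, nor could rescaling to trimmed means already equal. The other erythroid markers were lower with it: 10 of 13 measured markers were at least 2-fold lower for DKO over WT and 0 were higher, and 14 markers summed to 44453 on DKO, 158590 on p53 KO and 138087 on WT. Fewer red cell precursors in the sort and less RNA per cell cannot be told apart in these bulk samples, here or for any receptor described.

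Csf3r, the G-CSF receptor of neutrophils and their precursors, had signals of 1692 on DKO, 2243 on p53 KO and 1166 on WT. It was thus highest on p53 KO and lowest on WT, but no pair of arrays differed by 2-fold. The log2 difference was 0.94 for p53 KO over WT (1.92-fold), 0.54 for DKO over WT and -0.41 for DKO over p53 KO.

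Csf2rb, the shared signalling chain of the IL-3, IL-5 and GM-CSF receptors, had signals of 1604.5 on DKO, 2591 on p53 KO and 842 on WT. The order of arrays was that of Csf1r. The log2 difference was 1.62 for p53 KO over WT (3.08-fold), 0.93 for DKO over WT (1.90-fold) and -0.69 for DKO over p53 KO. A dimmer probe set had 144 on DKO, 129.8 on p53 KO and 66.0 on WT, where it was below the floor, so it was at least 0.23 higher on p53 KO and at least 0.38 higher on DKO than on WT. With the mean over both probe sets, where the dimmer one entered at its bound of 0.23, the difference of p53 KO over WT was 0.93 and no longer 2-fold. Mice carry a near-identical copy, Csf2rb2, which encodes a beta chain that serves IL-3 alone, and the probe sets may not part the copies fully, so the Csf2rb values are uncertain to that extent. The probe set annotated to both genes had 50.02 on DKO, 213 on p53 KO and 81.4 on WT.

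Markers of monocytes, macrophages and granulocytes moved with these receptors on the p53 KO array. Of 14 measured monocyte and macrophage markers other than Csf1r, 12 were at least 2-fold higher for p53 KO over WT and 0 lower. On DKO 0 of the 14 were 2-fold higher than on WT, and their sum was 21428 on DKO, 64527 on p53 KO and 25094 on WT. Of 13 granulocyte markers, 7 were at least 2-fold higher for p53 KO over WT and 3 for DKO over WT, where 2 were lower, and they summed to 133829 on DKO, 250112 on p53 KO and 140682 on WT. Every marker on both lists reached the floor on at least 1 array. These sums weight the bright genes, and the members parted for DKO over WT: among those named after their values were seen, Mpeg1 (0.90), F13a1 (0.84), Elane (1.53) and Ctsg (1.54) were higher on DKO, and Lyz2 (-0.71), Ltf (-1.16) and Camp (-1.19) were lower. The part of monocytes, macrophages and granulocytes in the receptor signals of p53 KO and DKO was not tested. The rise on p53 KO was not limited to these cells. Over WT, 10 of 12 B cell markers and 8 of 14 megakaryocyte markers were also at least 2-fold higher, and 0 of either list lower.

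**Figure D2:**
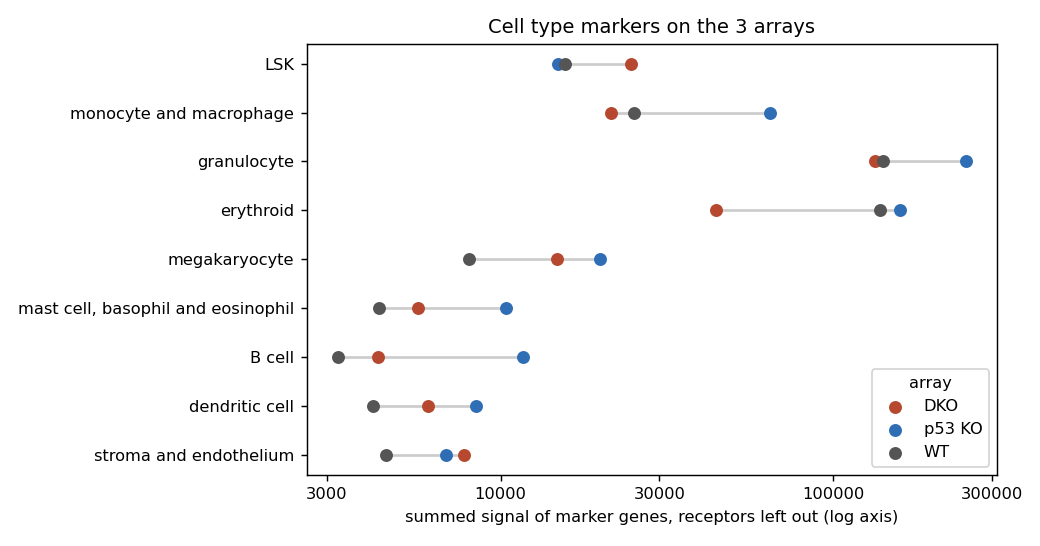
Summed signal (log axis) of the markers of each cell type, with the 9 receptors left out, on the DKO (red), p53 KO (blue) and WT (grey) arrays. Monocyte and granulocyte sums are highest on p53 KO, and the erythroid sum is lowest on DKO at 44453.

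Il3ra, the ligand-binding chain of the IL-3 receptor, was at the limit of measurement with 117 on DKO, 118 on p53 KO and 81.4 on WT. It reached the floor on DKO and p53 KO and not on WT, so its differences from WT are lower bounds of 0.08 and 0.10. No difference between arrays can be read from these signals.

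Il6st, the chain through which IL-6, IL-11, LIF and oncostatin M signal, had signals of 848 on DKO, 2279 on p53 KO and 849 on WT by its brightest probe set. The p53 KO array alone was high, with a log2 difference of 1.43 for p53 KO over WT (2.69-fold), 0.00 for DKO over WT and -1.43 for DKO over p53 KO. The next probe set told another order, with 390.3 on DKO, 304 on p53 KO and 188 on WT, and gave 0.69 for p53 KO over WT, 1.05 for DKO over WT, which is past 2-fold, and 0.36 for DKO over p53 KO. The probe sets thus share only that p53 KO was higher than WT, and they disagree in sign for DKO over p53 KO. The remaining 2 probe sets were below the floor on every array. With the mean over all 4, p53 KO over WT was 0.53 and DKO over p53 KO was -0.27, both under 2-fold. In that mean the 2 probe sets below the floor each entered as 0, which draws it toward 0.

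**Figure D3:**
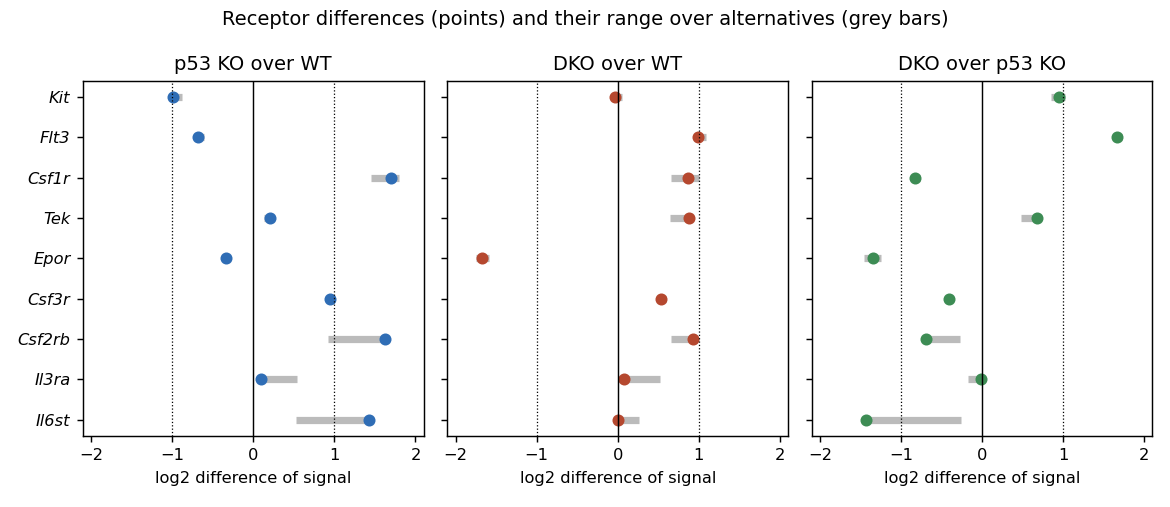
Log2 difference of signal of each receptor in the 3 comparisons (points), with the range over the alternative settings in grey and dotted lines at 2-fold. The wide bars of Csf2rb and Il6st come from the mean over their probe sets, and Epor on DKO stays beyond -1 throughout.

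**Figure D4:**
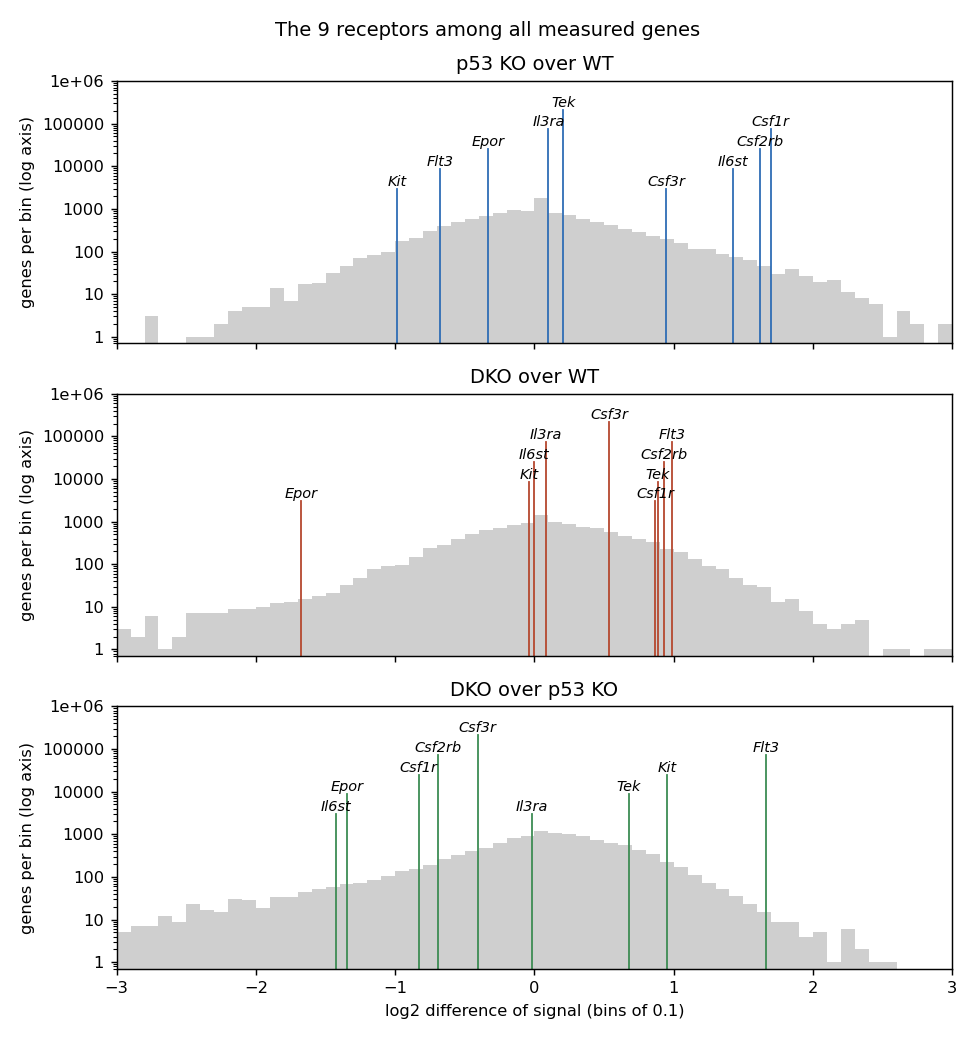
Number of measured genes (log axis) by log2 difference in bins of 0.1, drawn between -3 and 3, with the 9 receptors marked by lines whose height has no meaning. Flt3 lies far out to the right for DKO over p53 KO, where 44 genes have a larger difference, and Epor far out to the left for DKO over WT.

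Promoters are shown for Epor and Flt3, which stood furthest apart on DKO, and for Csf3r and Kit, a myeloid and a stem cell receptor that were high and low on p53 KO, because factors known to act on such genes were measured on the same arrays. They are taken from RefSeq (GRCm38.p6) and run 5′ to 3′ from 250 bases before to 50 after the start. The set of promoters used here held 7 of the 9 genes, without Csf1r and Csf2rb. Capitals mark matches on either strand to GATAA (GATA factors), CCNCNCCC (Klf1 and related factors), GAGGAA (PU.1), CGGAAG (ETS factors), TGTGGT (Runx) and TTNNGCAA (C/EBP). Matches to CCNCNCCC may overlap each other and were counted singly. The motifs were chosen after the signals were seen.
Epor, chr9:21963527-21963826, minus strand: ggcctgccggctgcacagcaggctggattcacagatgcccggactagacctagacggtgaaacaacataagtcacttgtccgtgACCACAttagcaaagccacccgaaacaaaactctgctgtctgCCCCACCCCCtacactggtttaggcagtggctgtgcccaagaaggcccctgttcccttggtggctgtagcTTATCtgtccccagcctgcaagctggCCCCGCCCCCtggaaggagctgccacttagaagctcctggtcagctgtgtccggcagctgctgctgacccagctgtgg
Csf3r, chr4:126024409-126024708, plus strand: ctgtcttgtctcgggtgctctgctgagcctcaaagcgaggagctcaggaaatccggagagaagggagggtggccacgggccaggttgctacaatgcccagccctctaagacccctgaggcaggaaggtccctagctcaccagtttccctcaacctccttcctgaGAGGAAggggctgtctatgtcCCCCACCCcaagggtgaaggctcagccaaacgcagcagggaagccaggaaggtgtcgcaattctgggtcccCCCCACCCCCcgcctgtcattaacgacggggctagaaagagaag
Flt3, chr5:147400440-147400739, minus strand: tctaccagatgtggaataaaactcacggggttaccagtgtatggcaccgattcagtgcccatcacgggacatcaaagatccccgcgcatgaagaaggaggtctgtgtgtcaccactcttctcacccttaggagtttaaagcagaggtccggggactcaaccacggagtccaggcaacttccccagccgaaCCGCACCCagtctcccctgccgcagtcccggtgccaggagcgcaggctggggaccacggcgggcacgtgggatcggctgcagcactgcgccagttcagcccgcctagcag
Kit, chr5:75574737-75575036, plus strand: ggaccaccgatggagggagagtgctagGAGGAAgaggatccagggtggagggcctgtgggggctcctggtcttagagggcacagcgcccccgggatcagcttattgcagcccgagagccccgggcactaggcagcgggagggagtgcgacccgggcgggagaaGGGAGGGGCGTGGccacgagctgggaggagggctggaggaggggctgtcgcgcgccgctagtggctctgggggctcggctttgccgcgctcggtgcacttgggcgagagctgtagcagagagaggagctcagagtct

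The Epor window held 1 GATAA match on the opposite strand, starting at base 197 of 300, 4 matches to CCNCNCCC and 1 to TGTGGT. The Csf3r window held 3 matches to CCNCNCCC and 1 to GAGGAA, at base 165. The Kit window held 2 matches to CCNCNCCC and 1 to GAGGAA, and the Flt3 window held 1 match to CCNCNCCC. None of these 4 windows held CGGAAG or TTNNGCAA. Of 32851 promoter windows of the same length, 25.4% held GATAA, 49.5% CCNCNCCC, 28.3% GAGGAA, 16.9% CGGAAG, 16.8% TGTGGT and 10.8% TTNNGCAA, so single matches are common.

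Transcription factors known to act on receptor genes were measured for 18 of 19 listed names. The DKO array had 6 of them at 2-fold or more above WT (5.22% of all genes) and 4 as far below it (3.10%), and the median was 0.47. The 6 were Spi1 (PU.1, 1.18), Cebpa (at least 1.43), Irf8 (1.09), Meis1 (1.05), Fli1 (1.12) and Erg (1.25), by the probe set used for each gene. Klf1, the erythroid activator, had signals of 1972 on DKO, 9033 on p53 KO and 12847 on WT (-2.70 for DKO over WT). Gata1, which drives red cell and platelet genes including Epor, had 1422 on DKO, 3855 on p53 KO and 4923 on WT (-1.79). Gfi1b, a repressor of the same lineages, had 824 on DKO, 1029 on p53 KO and 2754 on WT (-1.74), and so was low on both knockouts. Klf1 and Gata1 are also among the erythroid markers above, Irf8 among the dendritic cell markers and Meis1 among the LSK markers. Cebpb, a factor of macrophages and stress granulopoiesis, was at 1.19 for p53 KO over WT and at -1.56 for DKO over p53 KO. For p53 KO over WT 3 of the 18 were at least 2-fold higher and 1 lower, and for DKO over p53 KO 1 was higher and 4 lower.

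Ligands of the receptors were named for 16 of 20 genes, and 8 of them reached the floor. Those below it on every array were Angpt2, Il34, Csf3, Csf2, Il3, Il5, Il6 and Lif, named here after their values were seen. On DKO 2 of the 8 measured ligands were at least 2-fold above WT (5.22% of all genes) and 0 as far below it (3.10%). Their median was 0.90, beside 0.07 over all genes. Clcf1, a ligand of the gp130 family, had 545 on DKO, 262 on p53 KO and 146 on WT (1.90 for DKO over WT), though its other 2 probe sets ranged from -0.34 to 1.25. Angpt1, the Tek ligand that stem cells themselves express, had 5530 on DKO, 2537 on p53 KO and 2864 on WT (0.95 for DKO over WT and 1.12 for DKO over p53 KO). Ctf1 (cardiotrophin) had 501 on DKO, 273 on p53 KO and 250.2 on WT, and Osm (oncostatin M) was 0.93 higher for DKO over WT. For p53 KO over WT none of the 8 was at least 2-fold different. Signals near the floor were higher on the DKO array in general, where the median over all probe sets was 129 against 105 on p53 KO and 98.0 on WT.

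Partner chains were measured for 7 of 11 listed names. Csf2rb2 had 397 on DKO, 785 on p53 KO and 299.5 on WT, which is 1.39 higher for p53 KO over WT. Csf2ra, the GM-CSF binding chain, had 314 on DKO, 663 on p53 KO and 372 on WT (0.84 for p53 KO over WT, 1.16 by another probe set). Both chains were thus highest on p53 KO, as Csf2rb was. Lifr, which pairs with gp130, was at least 1.04 higher on p53 KO than on WT, where it lay below the floor. Il27ra, another gp130 partner, was highest on DKO, 0.99 higher than on WT. In all, 2 of 7 partners were at least 2-fold higher for p53 KO over WT (median 0.26), where 6.51% of all genes were. For DKO over WT 0 of 7 differed by 2-fold (median 0.41). For DKO over p53 KO 2 were at least 2-fold lower, where 5.93% of all genes were.

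Other receptors found on progenitors gave 18 measured genes. On DKO 5 of them were 2-fold or more above WT (5.22% of all genes) and 0 as far below (3.10%). For p53 KO over WT 2 were at least 2-fold higher (6.51% of all genes) and 0 lower (3.19%). The medians were 0.33 for DKO and 0.37 for p53 KO over WT. Pdgfrb, a kinase of the same class as Kit and Flt3 and better known from pericytes, had 2136 on DKO, 417 on p53 KO and 558 on WT by its 1 measured probe set. Its difference was 2.36 for DKO over p53 KO (5.12-fold) and 1.94 for DKO over WT, and its order of arrays was that of Flt3. Il7r, the IL-7 receptor of lymphoid progenitors, had 1001 on DKO, 1386 on p53 KO and 334 on WT, which is 2.05 higher for p53 KO and 1.58 higher for DKO over WT (1.11 and 0.63 by another probe set). Il4ra was 1.48 higher for DKO over WT by the probe set used and between 0.00 and 0.40 by its other 2. Il13ra1 was at least 1.38 higher on p53 KO than on the other arrays, where it was below the floor, with 0.18 to 0.76 by its other 2 probe sets against WT.

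Signalling genes downstream of the receptors had medians near 0. By the probe set used for each gene, of 10 JAK and STAT genes 0 differed by 2-fold for p53 KO over WT and 1, Stat4, was at least 2-fold higher for DKO over WT (1.02), with 920 on DKO, 637 on p53 KO and 455 on WT. The medians of the 10 were 0.00 for p53 KO and -0.09 for DKO over WT. Stat3, the main factor below gp130 and G-CSF receptors, was 0.74 higher on p53 KO and 0.77 higher on DKO than on WT, and its other 3 probe sets ranged from 0.48 to 1.60 and from 0.36 to 1.496, in part past 2-fold. Stat5a, one of the STATs below Epor, Kit and Csf2rb, was at -0.67 for p53 KO and -0.45 for DKO over WT, and the kinase gene Jak3 was at 0.36 and 0.57. The medians of 28 adaptors and kinases close to the receptors were 0.16 for p53 KO and 0.03 for DKO over WT. Of the 28, 3 were at least 2-fold higher for p53 KO over WT, where 6.51% of all genes were. They were the PI3-kinase subunit Pik3r5 (1.38), the tyrosine kinase Fes (1.29) and the phospholipase Plcg2 (1.02). Plcg2 was at 1.19 for DKO over WT, the 1 gene of the 28 past 2-fold, where 5.22% of all genes were as high. The kinase Fyn followed at 0.93.

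Feedback inhibitors and genes of receptor turnover had a few members that stood high on both knockouts by the probe set used for each gene. The medians of the 28 measured were 0.16 for p53 KO and 0.15 for DKO over WT. For p53 KO over WT 5 of them were at least 2-fold higher (6.51% of all genes) and 1 lower (3.19%). For DKO over WT 4 were at least 2-fold higher (5.22% of all genes) and 0 lower (3.10%). Socs3, which shuts off gp130 and G-CSF receptors, had 638 on DKO, 526 on p53 KO and 188 on WT (1.48 for p53 KO and 1.76 for DKO over WT), with other probe sets from -0.05 to 1.11 and from 0.50 to 2.01. Socs2, a target of STAT5, had 668 on DKO, 803 on p53 KO and 330 on WT (1.28 and 1.02), with other probe sets from -0.01 to 1.80 and from 0.00 to 0.88. Ubash3b, a phosphatase that restrains tyrosine kinase signals, was 1.04 and 1.65 higher on the same arrays. Its other probe sets ranged from -0.50 to 0.35 for p53 KO and from 0.38 to 0.996 for DKO. Ubash3a, a relative found in lymphoid cells, was the gene lower on p53 KO, at -1.27, with -0.30 by its other probe set.

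Genes known to respond to STAT5 were high on the p53 KO array as a list, with 8 of 15 at least 2-fold higher, 0 lower and a median of 1.11 for p53 KO over WT, where 6.51% of all genes were higher and the median was 0.00. The same list had 2 genes 2-fold higher and 0 lower for DKO over WT, with a median of 0.40, and for DKO over p53 KO 1 was higher and 4 lower. Ccnd3, a G1 cyclin, had 966 on DKO, 3858 on p53 KO and 1400.0 on WT (1.46 for p53 KO over WT, but -0.12 and 0.70 by its other probe sets). Igf1, a growth factor gene, had 127 on DKO, 404 on p53 KO and 118 on WT (1.77, with 0.36 to 1.38 by its other 3 probe sets). Gadd45g, a stress response gene, had 129 on DKO, 378 on p53 KO and 143 on WT (1.40). The list was mixed for p53 KO over WT, with 12 genes above 0 and 3 below. Named after their values were seen, Ccnd2 (-0.51), Id1 (-0.16) and Pim3 (-0.10) were lower, and Cish was at 0.22. Whether STAT5 was more active was not tested. Several genes of this list are also active in monocytes, macrophages and granulocytes, whose markers were higher on the same array. The part of these cells in the list was not tested. Cish, Socs2, Socs3 and Osm are on this list and on another of those above.

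**Figure D5:**
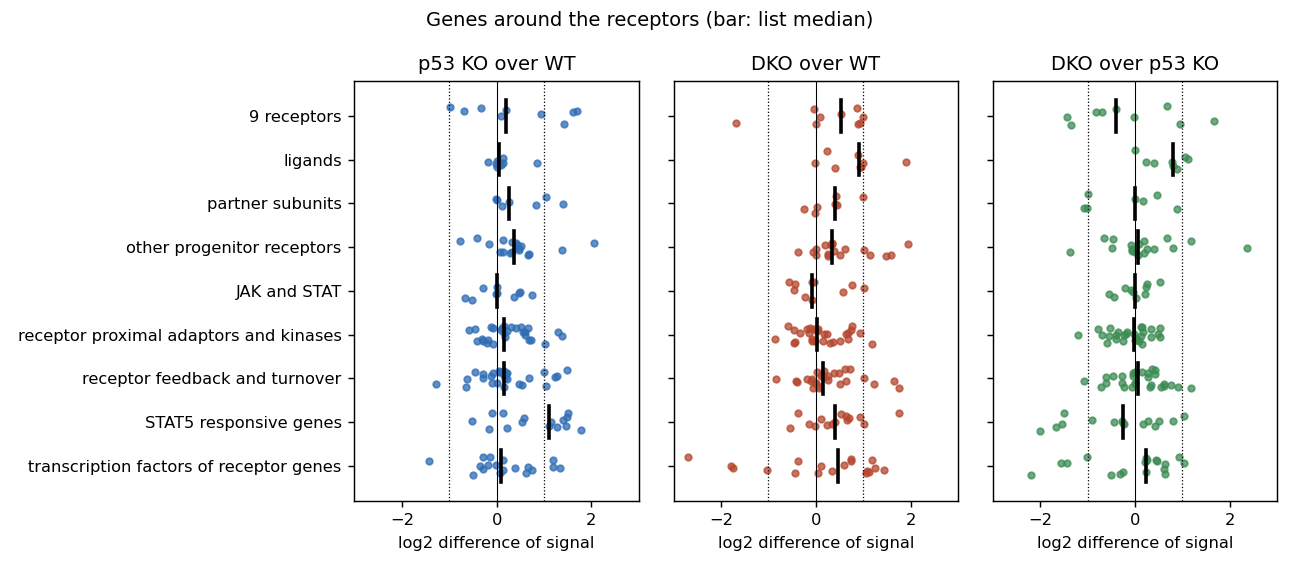
Log2 difference of signal of each measured gene (points) in the 9 receptors and the lists around them, with black bars at the list medians and dotted lines at 2-fold; the lists here keep all their measured genes. The STAT5 list has a median of 1.11 for p53 KO over WT, and the ligands have one of 0.90 for DKO over WT.

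Genes whose pattern over the 3 arrays lay nearest to each receptor were sought among 7698 measured genes with at least 1 signal at or over the 75th percentile (448.4). Nearness was the Euclidean distance between the pairs of log2 differences from WT, which rests on 3 arrays and is a description. A small number of genes within 0.25 means that few genes shared the pattern. Nearest to Epor was Gata1 (distance 0.12), followed by Stx2 (0.12) and Pheta2 (0.15), and 10 genes lay within 0.25. Flt3 had 7 genes within 0.25, led by Sh2d5 (0.04), Dnal1 (0.12) and Trim37 (0.15). For Csf1r the nearest were Ppp1r3b, Herc6 and Myadm (0.06 to 0.07) with 26 genes within 0.25, and for Csf2rb they were Fcgr2b, Klrd1 and Herc6 (0.03 to 0.06) with 25. Kit was nearest to Pus7l, Slc19a1 and Zc3h8 (0.04 each) with 122 genes within 0.25, Csf3r to Btg1, N4bp2l1 and Smpd2 with 160, and Tek to Pdia5, Impact and Wfdc18 with 182. Il6st was nearest to Smox, Mgst1 and Ypel5 with 65 genes within 0.25. Il3ra, close to the floor, was nearest to Tex2, Rnf44 and Phf2 and had 1014 genes within that distance.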

How the data were processed

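The data are intensity values of 45101 probe sets on 3 arrays, deposited by the authors on a linear scale. Per the submitters' processing notes they were made with GCOS and MAS5, versions not stated. Their 2% trimmed mean is 500.0 on each array, so they already carry global scaling. No detection calls were used here, and all value columns were matched to an array. RNeasy purification and 1 cycle of biotin labelling are given per the labels.

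Symbols came from the platform annotation, updated through Entrez IDs to RefSeq (GRCm38.p6) for 34754 probe sets; 34958 probe sets carried 1 symbol, 932 several and 9211 none, which are unnamed in the table used. Floor, log2 differences and the probe set per gene are as given with the results. No test was possible with 1 array for each genotype, and the number of arrays limits precision.

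The text names the 9 receptors, up to 4 genes per pathway list with the largest difference and the 3 nearest genes in pattern (without clone or predicted names), beside markers that carry sums. Markers that go against a sum, the factors at least 2-fold higher on DKO and the STAT5 genes under 2-fold were named after their values were seen. Members, lists and thresholds were chosen with earlier results of these data known. Alternatives changed the scaling (2% trimmed mean, quantile, or cyclic loess with 3 iterations), the floor (25th or 75th percentile, or none with a pseudocount of 32), the probe sets (their mean, or only those unique to a transcript) and the threshold (1.5-fold or 3-fold). Calculations used Python 3.11.15, pandas 2.3.3 and limma 3.58.1 and were tested on simulated data.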

Additional observations from a re-analysis of the deposited data

How the results depend on the processing

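Each difference of a receptor was computed under up to 8 alternatives, 207 values in all, and no difference of at least 2-fold changed sign. Of these values 203 moved by less than the robust SD between probe sets given with the results. The other 4 were Csf2rb at 0.93 and Il6st at 0.53 for p53 KO over WT and Il6st at -0.27 for DKO over p53 KO, with the mean over probe sets, and Il3ra at 0.54 for p53 KO over WT when the floor was the 25th percentile. Part of this sameness was fixed beforehand. Rescaling to the trimmed mean, already equal on all arrays, could change no value. The settings on probe sets could not change the 5 receptors with 1 probe set. With the mean over probe sets the count for p53 KO over WT was therefore 1 receptor at least 2-fold higher (Csf1r), and 1 (Epor) was lower for DKO over p53 KO. Quantile normalization gave 1 higher receptor for DKO over WT (Flt3), as did cyclic loess, and quantile normalization gave 2 for DKO over p53 KO (Kit and Flt3). Cyclic loess moved the median of all genes for DKO over p53 KO from 0.11 to 0.01. At 1.5-fold, 2 receptors were lower for p53 KO over WT, 4 were higher for DKO over WT, and 3 were higher and 4 lower for DKO over p53 KO. At 3-fold 0 were lower for DKO over p53 KO. The median for p53 KO over WT was 0.94 when the floor was the 75th percentile, over the 7 receptors still measured without Tek and Il3ra. Kit has no probe set unique to a transcript and gave no value there. Signals near the floor, those of Il3ra and in part Tek, limit what can be read from these genes.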

Other observations

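Marker lists of other cell types also differed between arrays, with the receptors left out of every list. B cell markers were highest on p53 KO, with sums of 4295 on DKO, 11713 on p53 KO and 3251 on WT, and 10 of 12 were at least 2-fold higher for p53 KO over WT. Megakaryocyte markers summed to 14775 on DKO, 19852 on p53 KO and 8023 on WT, with 8 of 14 at least 2-fold higher for p53 KO over WT and 2 of 14 for DKO over WT. Markers of mast cells, basophils and eosinophils, cells that respond to IL-3 and IL-5, summed to 5643 on DKO, 10392 on p53 KO and 4328 on WT. Prg2 carried much of the p53 KO sum (272 on DKO, 4383 on p53 KO and 1223 on WT), while Cpa3 was highest on DKO (2020, 497 and 613). Of the 10 measured markers 4 were at least 2-fold higher for p53 KO over WT and 0 lower, with a median of 0.00. For DKO over p53 KO 6 were higher and 4 lower by any amount. Tpsb2 was below the floor on every array. T and NK cell markers summed to 3415 on DKO, 3890.2 on p53 KO and 2029 on WT, with Cd2, Cd3e, Cd3g, Cd4 and Ncr1 below the floor throughout. Nkg7 carried most of the DKO sum (2724 on DKO, 1667 on p53 KO and 1176 on WT). For DKO over p53 KO 5 of the 6 measured markers were lower and 1 higher by any amount, with a median of -1.17. Of 18 genes of other organs, 6 reached the floor on DKO, 2 on p53 KO and 2 on WT, and their sums were 3755, 3208 and 3485 in the same order.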
